A study of Homo sapiens with 24 samples.

Results

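The immediate early genes FOS, FOSL1, JUN, JUNB, JUND, EGR1, IER2, IER3, DUSP1 and KLF6 were followed across all libraries of a study of the RPRD proteins. They are 10 of the 58138 gene names in the count tables and were chosen by name, as short-lived RNAs that follow transcription and handling. The choice was made with earlier results of these data known. The series asked what RPRD1A, RPRD1B and RPRD2, proteins that bind the tail of RNA polymerase II, do to steady-state RNA. RNA was counted by 3′ end sequencing (QuantSeq REV) in 24 libraries, 12 groups of 2.

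The 16 HEK293T libraries, from a transformed human embryonic kidney line, were all transfected with small interfering RNA (siRNA). CTRL received control siRNA. RPRD1A_KD, RPRD1B_KD and RPRD2_KD were single knockdowns. RPRD1A_RPRD2_KD and RPRD1B_RPRD2_KD were double knockdowns, and RPRD1A_RPRD1B_RPRD2_KD was the triple one. A further group is labelled RPRD1A_RPRD1A_KD, with the same gene named in both places. The 8 Flp-In T-REx 293 libraries came from a kidney line made for tetracycline-inducible inserts: FLP and RPRD1B_FL were untreated, and FLP_TET and RPRD1B_FL_TET were tetracycline induced. The labels do not explain FL and do not say whether a line is 1 clone. Transfection or induction lasted 48 h, in DMEM with serum, and no serum starvation or growth factor pulse is named. The labels do not say that the 2 libraries of a group came from separate cultures, so p-values measure the spread between these libraries, which may be technical.

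Counts in genes were 1817246 to 3135625 per HEK293T library and 2342969 to 3531106 per Flp-In library. The targeted genes followed most labels: RPRD1A stood at 12.2 to 16.3% of CTRL in the 4 groups naming it, RPRD1B at 27.2 to 37.2% in its 3 groups, and RPRD2 at 32.6 to 61% in its 4 groups. RPRD1A also stood at 47.9 to 58.5% of CTRL in the groups that do not name it. RPRD1B was also at 39.1% of CTRL in the library group labelled RPRD1A_RPRD1A_KD. In edgeR RPRD1A was called (adjusted p under 0.05, below) in its 4 groups. RPRD1B was called in none of its 3 groups (log2 -1.8 to -1.45). RPRD2 was called in RPRD2_KD and RPRD1B_RPRD2_KD, but not in RPRD1A_RPRD2_KD (edgeR adjusted p = 0.121) or the triple knockdown (0.887). Of 8 markers of 293 cells, 7 averaged over 1 CPM (counts scaled to library size, below) in HEK293T and 8 in Flp-In. Their summed level was 150 to 223 CPM in HEK293T and 966 to 1490 CPM in Flp-In, where KRT19 averaged 503 CPM against 0.405. The other way, NEFM averaged 11.4 CPM in HEK293T against 1.89 in Flp-In, and LHX1 10.4 against 8.75. The remaining markers were lower in HEK293T. Among leukocyte markers PTPRC, CD3E and LYZ were at 0 in HEK293T. The second RPRD1A_RPRD2_KD library stood apart from the other HEK293T libraries, with a Spearman correlation across genes of 0.457 between GC content and its deviation from the mean, against -0.241 to 0.118 in the others. In Flp-In this correlation was -0.546 and -0.355 in FLP, 0.306 and 0.471 in FLP_TET, 0.179 and -0.49 in RPRD1B_FL, and 0.6 and -0.13 in RPRD1B_FL_TET. It thus separated FLP from FLP_TET.

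Immediate early genes are transcribed within minutes of a growth factor or stress signal, without new protein synthesis. ERK and p38 kinases act on serum response factor with its partners, which bind CArG boxes, and on CREB and ATF factors, which bind cAMP response elements. The messenger RNAs are quickly degraded, many through AU-rich elements, so their level falls soon after the signal ends. FOS and JUN family proteins pair as AP-1, EGR1 and KLF6 are zinc finger transcription factors, and DUSP1 removes the activating phosphates from MAP kinases.

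The promoters of 4 of the genes whose levels differed below are shown as the 250 bases before the RefSeq start (GRCh38.p14), 5′ to 3′ on the gene's strand. JUN, which also differed below, is not shown. The promoter table used here matched 8 of the 10 genes, all but FOSL1 and IER3. Capitals mark CArG boxes and TGACG, the core of the cAMP response element, on either strand, where the other strand reads CGTCA.
EGR1, chr5:138465229-138465478, plus strand: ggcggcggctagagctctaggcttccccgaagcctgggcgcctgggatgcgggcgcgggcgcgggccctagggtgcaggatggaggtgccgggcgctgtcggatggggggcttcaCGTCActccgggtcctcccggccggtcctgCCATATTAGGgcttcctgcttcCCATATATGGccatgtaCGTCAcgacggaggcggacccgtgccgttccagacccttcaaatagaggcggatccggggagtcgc
JUNB, chr19:12791236-12791485, plus strand: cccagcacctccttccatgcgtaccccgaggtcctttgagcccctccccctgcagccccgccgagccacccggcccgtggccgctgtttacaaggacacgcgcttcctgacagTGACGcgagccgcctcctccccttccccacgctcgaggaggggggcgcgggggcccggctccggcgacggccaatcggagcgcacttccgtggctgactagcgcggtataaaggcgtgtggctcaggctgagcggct
JUND, chr19:18281623-18281872, minus strand: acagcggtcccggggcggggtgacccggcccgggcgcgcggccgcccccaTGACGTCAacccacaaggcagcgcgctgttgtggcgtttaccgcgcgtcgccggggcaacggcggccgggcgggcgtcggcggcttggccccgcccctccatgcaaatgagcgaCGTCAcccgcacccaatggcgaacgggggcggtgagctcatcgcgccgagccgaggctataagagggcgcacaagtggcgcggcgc
IER2, chr19:13150161-13150410, plus strand: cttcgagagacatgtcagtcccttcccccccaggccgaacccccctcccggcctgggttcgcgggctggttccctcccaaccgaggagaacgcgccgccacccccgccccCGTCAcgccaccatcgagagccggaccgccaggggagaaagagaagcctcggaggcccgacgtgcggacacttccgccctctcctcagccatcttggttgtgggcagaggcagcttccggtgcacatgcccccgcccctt

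EGR1 was the only one of the 8 matched genes with a CArG box in this window, and it held 2, starting 105 and 83 bases before the start. A CArG box was found in 1.16% of 35116 promoter windows. TGACG was found in 7 of the 8 (all but KLF6) and in 21.2% of all windows. The whole element TGACGTCA, which contains TGACG on both strands, was in JUND and DUSP1 (2 of 8) and in 1.65% of all windows. TATAA, searched on the gene's strand, was in 4 of 8 (13.6% of all) and CCAAT, on either strand, in 4 of 8 (32% of all). A match describes the letters and is no measure of binding.

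CPM are edgeR's counts-per-library-size values after trimmed mean (TMM) scaling. Of the 10 members, 2 were too low to test: FOS had 0 to 7 counts per HEK293T library (42 in all, 2 libraries at 0) and 2 to 8 per Flp-In library (36 in all). FOSL1, another FOS family partner of JUN, had 0 to 7 (39 in all, 5 libraries at 0) and 1 to 7 (32 in all). Pooled, FOS was at 1.11 CPM in HEK293T (exact 95% Poisson interval 0.801 to 1.5) and 1.52 CPM in Flp-In (1.06 to 2.1). These levels lie near 3 counts per library, which is 0.85 to 1.65 CPM, so a fall or a small rise was not detectable at this depth. No library held more than 8 counts of either gene. Such intervals cover counting error only.

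The other 8 passed the filter on low counts in each line. JUN, on chromosome 1 (58780788 to 58784327, minus strand, GRCh38, GENCODE 29), ranged from 355 to 569 CPM in HEK293T, median 445, and from 760 to 984 in Flp-In, median 905. JUND, the JUN relative that is usually expressed in resting cells, ranged from 71.6 to 100 CPM (median 86.1) and from 137 to 194 (median 163). JUNB ranged from 30.8 to 89.2 CPM (median 53.7) in HEK293T and from 36.1 to 80.4 (median 53.7) in Flp-In. JUN and JUND were higher in every Flp-In library than in any HEK293T library, whereas the JUNB ranges overlapped.

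EGR1, on chromosome 5 (138465490 to 138469315, plus strand), ranged from 4.54 to 21.3 CPM in HEK293T (11 to 52 counts) and from 25.5 to 50.3 in Flp-In (67 to 113 counts). KLF6 ranged from 20.9 to 43.1 CPM and from 21.3 to 47.9. IER3, which restrains apoptosis, ranged from 90.4 to 138 CPM and from 125 to 180. IER2, a nuclear regulator, had 7 to 17 counts per HEK293T library (2.45 to 6.53 CPM) and 23 to 41 per Flp-In library (7.08 to 14.9 CPM). DUSP1 had 5 to 37 counts (2.78 to 13.7 CPM) in HEK293T and 24 to 54 (9.58 to 19.7 CPM) in Flp-In. In GENCODE 29 genes on the opposite strand overlap JUNB (HOOK2), IER2 (AC011446.2), IER3 (IER3-AS1) and DUSP1 (AC022217.3). Whether counting used strand is not given in the sources used here, so reads of these pairs cannot be told apart.

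**Figure D1:**
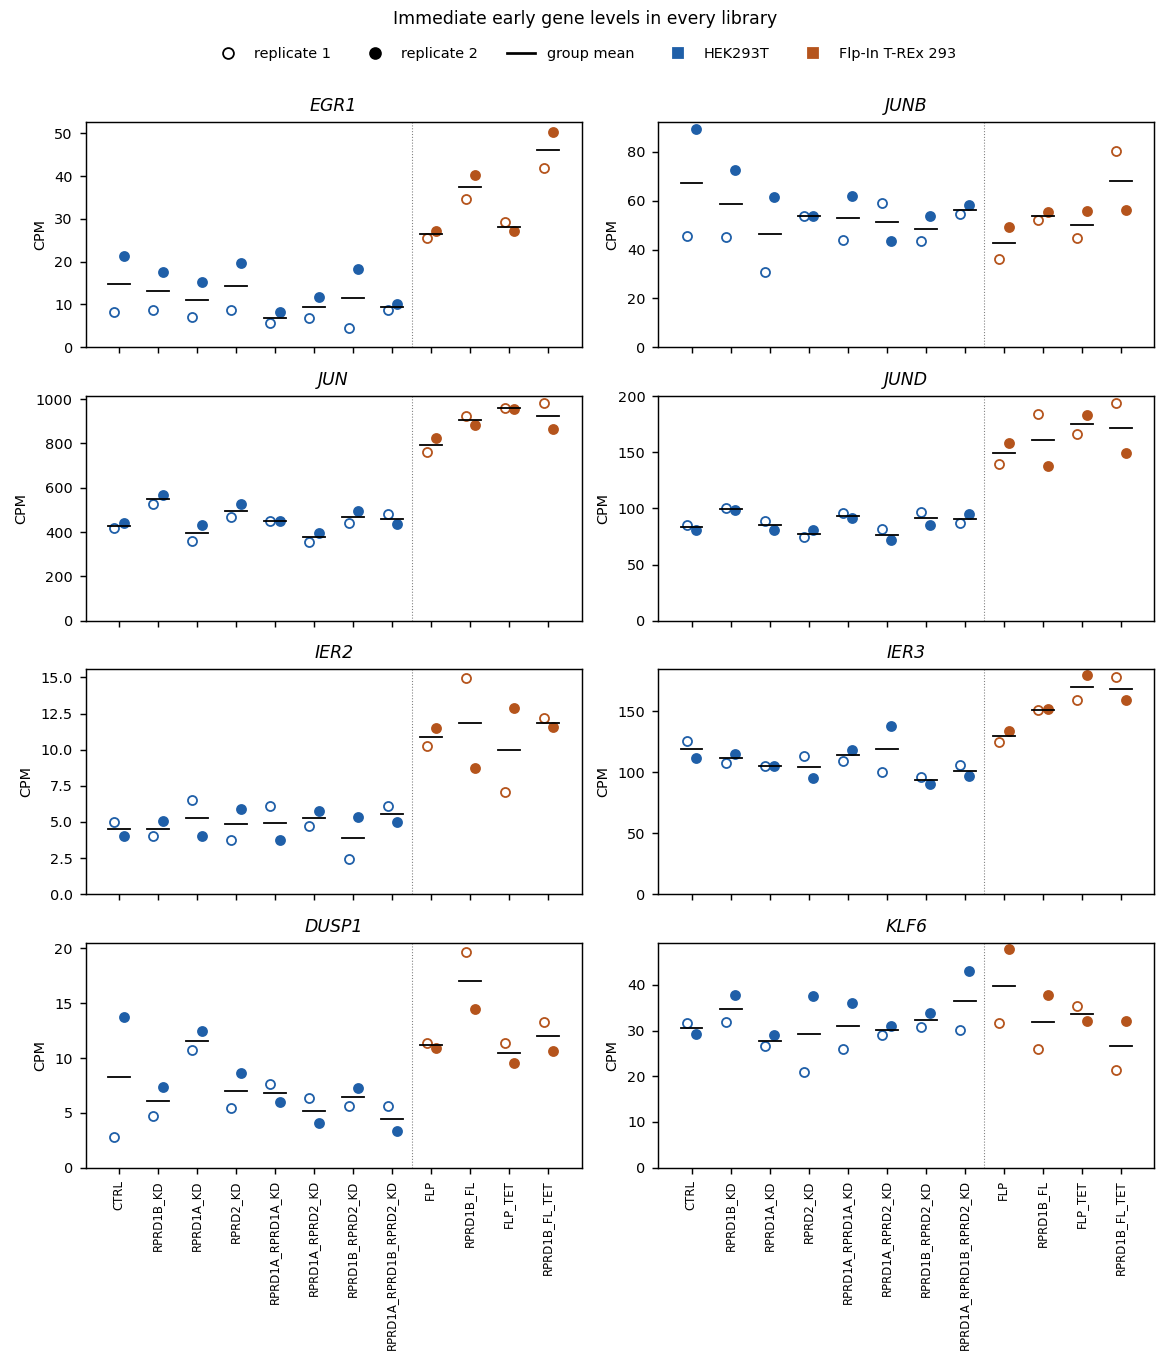
Level of the 8 tested immediate early genes, in CPM, in each of 24 libraries by group (open circle, replicate 1; filled circle, replicate 2; bar, mean of 2). EGR1 stays at or under 21.3 CPM in HEK293T and at or over 25.5 CPM in Flp-In, and its filled circles lie above the open ones in all 8 HEK293T groups.

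Group differences were then set against the spread between the 2 libraries of a group, as standard deviations (SD) of log2 CPM. A mean of 2 libraries varies less than a single library, so without group differences the SD of group means tends to lie below the replicate SD. In HEK293T the SD between replicates of EGR1 was 0.786, and the SD of its 8 group means was 0.326. The replicate SD includes the mean difference between replicate numbers, which enters every group mean alike. Counting alone gives 0.312 at its mean of 27.7 counts, and 4.06% of 11834 tested genes had a larger replicate SD. With the mean difference between replicate numbers removed, the replicate SD of EGR1 was 0.381, near that counting error. DUSP1 followed with 0.662 between replicates (7.55% of genes larger) and 0.402 between group means, and JUNB with 0.429 and 0.167.

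JUN and JUND stood at the other end. JUN had a replicate SD of 0.103 and a group mean SD of 0.18 in HEK293T. JUND had a replicate SD of 0.0992, about its counting error of 0.101, and a group mean SD of 0.138. The ratio of group to replicate SD was 1.75 for JUN and 1.39 for JUND, and larger in 1.33% and 3.94% of genes. IER2 had a replicate SD of 0.414, close to its counting error of 0.437. Over the 8 genes the median ratio was 0.544, against 0.671 over all tested genes.

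In Flp-In the spread of EGR1 between replicates was 0.141, about its counting error of 0.15, and its group means had an SD of 0.364. The ratio was 2.58, and 4.4% of 11948 genes had a larger one. The median ratio was 1.28 over the 8 genes and 0.946 over all genes.

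**Figure D2:**
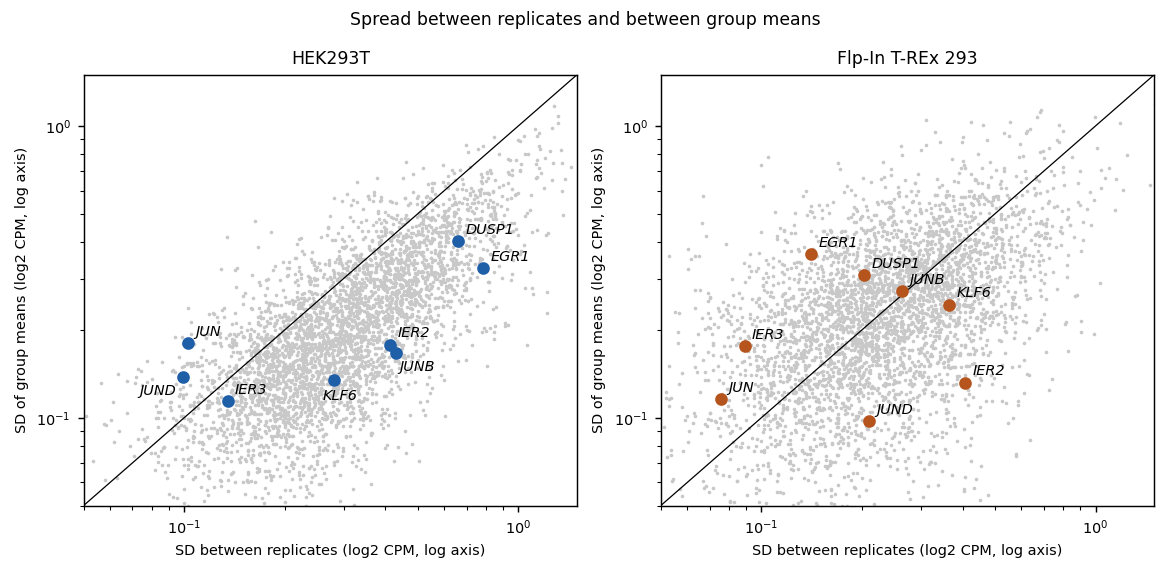
SD of group means against SD between replicates, both of log2 CPM on log axes, for each tested immediate early gene and for 4000 randomly drawn tested genes per line (grey). The line marks equal SDs, and without group differences genes tend to lie below it. In HEK293T EGR1 lies far right of the line at 0.786, and in Flp-In it lies above it at 0.141.

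No immediate early gene was called among the 8 HEK293T groups (edgeR quasi-likelihood test over all groups, Benjamini-Hochberg adjusted p under 0.05; 3 of 11834 genes called, 0.0254%). At an unadjusted p under 0.05 there were 374 genes (3.16%), JUN among them (adjusted p = 1 in edgeR), and DESeq2 called 12 genes and none of the 8. Of 56 pairs of a tested gene and a knockdown comparison with CTRL, 0 were called in edgeR and 1 had an unadjusted p under 0.05. RPRD1B itself was not called in the 3 groups naming it, at log2 -1.8 to -1.45, so 0 calls do not exclude a change. The background was 1 called gene (0.00845%) in RPRD1A_KD, RPRD1B_KD, RPRD2_KD and RPRD1A_RPRD2_KD and 2 (0.0169%) in the other 3 groups. At an unadjusted p under 0.05 the share of all genes was 2.64% in RPRD1A_KD, 3.46% in RPRD1B_KD, 3.84% in RPRD2_KD and 3.99% in RPRD1A_RPRD1A_KD. It was 7.07% in RPRD1A_RPRD2_KD, 2.51% in RPRD1B_RPRD2_KD and 3.99% in the triple knockdown. In bulk RNA, fewer cells and less RNA per cell cannot be told apart.

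The single pair was JUN in RPRD1B_KD. JUN stood at 417 and 440 CPM in CTRL and at 526 and 569 CPM in RPRD1B_KD. The log2 fold change was 0.36 (SE 0.15, 95% interval 0.05 to 0.66), with an adjusted p of 1 in edgeR. In the combined knockdowns with RPRD1B the libraries were closer to CTRL: RPRD1B_RPRD2_KD had 442 and 494 CPM and the triple knockdown 483 and 435 CPM.

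EGR1 had 8.3 and 21.3 CPM in CTRL, a gap wider than the range of the 8 group means, 6.92 to 14.8 CPM. RPRD1A_RPRD1A_KD had the lowest mean, 5.6 and 8.2 CPM, and the triple knockdown had 8.7 and 10 CPM. RPRD1A_KD had 7 and 15.1 CPM, RPRD1B_KD 8.7 and 17.5, and RPRD2_KD 8.8 and 19.6. RPRD1A_RPRD2_KD had 6.8 and 11.8 CPM and RPRD1B_RPRD2_KD 4.5 and 18.4. Pairs of knockdown groups were not tested against each other.

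The log2 fold changes of EGR1 against CTRL were -1.09 to -0.08, lower in all 7 comparisons, with intervals from -2.41 to 1.11, none called. JUNB was lower in 7 of 7 (-0.53 to -0.2, SE 0.33), from 45.6 and 89.2 CPM in CTRL, and DUSP1 in 6 of 7 (-0.95 to 0.44), from 2.8 and 13.7 CPM (5 and 31 counts). These comparisons share the same 2 CTRL libraries, and the share of all genes lower or higher in 7 of 7 was not computed. Without the second CTRL library JUNB was higher in 7 of 7 comparisons (0.04 to 0.37), DUSP1 in 7 of 7 (0.66 to 2.05) and EGR1 in 6 of 7 (-0.23 to 0.78). Without the first, all 3 genes were lower in 7 of 7, by -0.93 to -0.59 for JUNB, -1.58 to -0.56 for EGR1 and -1.62 to -0.24 for DUSP1. Leaving out a CTRL library also sets a control of 1 replicate number against knockdowns of both numbers, and EGR1 and JUNB differed with that number (below). Within the second replicates all 3 genes were below CTRL in 7 of 7 knockdowns: EGR1 at 8.25 to 19.6 against 21.3 CPM, JUNB at 43.5 to 72.7 against 89.2, and DUSP1 at 3.34 to 12.4 against 13.7. Within the first replicates EGR1 was lower in 4 of 7 (4.54 to 8.79 against 8.33 CPM) and JUNB in 4 of 7 (30.8 to 59 against 45.6), while DUSP1 was higher in 7 of 7 (4.72 to 10.7 against 2.78). The direction of DUSP1 thus turned between the 2 numbers, and the first replicates of EGR1 and JUNB lay on both sides of CTRL. Each number sets 1 CTRL library against 7 others, and the share of all genes lying on 1 side of it was not computed. With the replicate number as a block, EGR1 was lower in 7 of 7 (-1.09 to -0.05), JUNB in 7 of 7 (-0.53 to -0.19) and DUSP1 in 6 of 7 (-0.94 to 0.45), with 0 called (smallest edgeR adjusted p = 0.401, 0.526 and 0.535).

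IER3 was lower in 7 of 7 comparisons (-0.34 to -0.01), a pattern whose share over all genes was not computed, but in 5 of 7 without the first CTRL library. JUND ranged from -0.14 to 0.26, KLF6 from -0.13 to 0.28 and IER2 from -0.25 to 0.32. Of the other immediate early regulators, 16 of 25 in the tables were tested, and 0 were called among the HEK293T groups. The same held for 10 tested ERK feedback genes, 21 upstream kinases and factors, and 17 genes of AU-rich element binding and deadenylation.

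**Figure D3:**
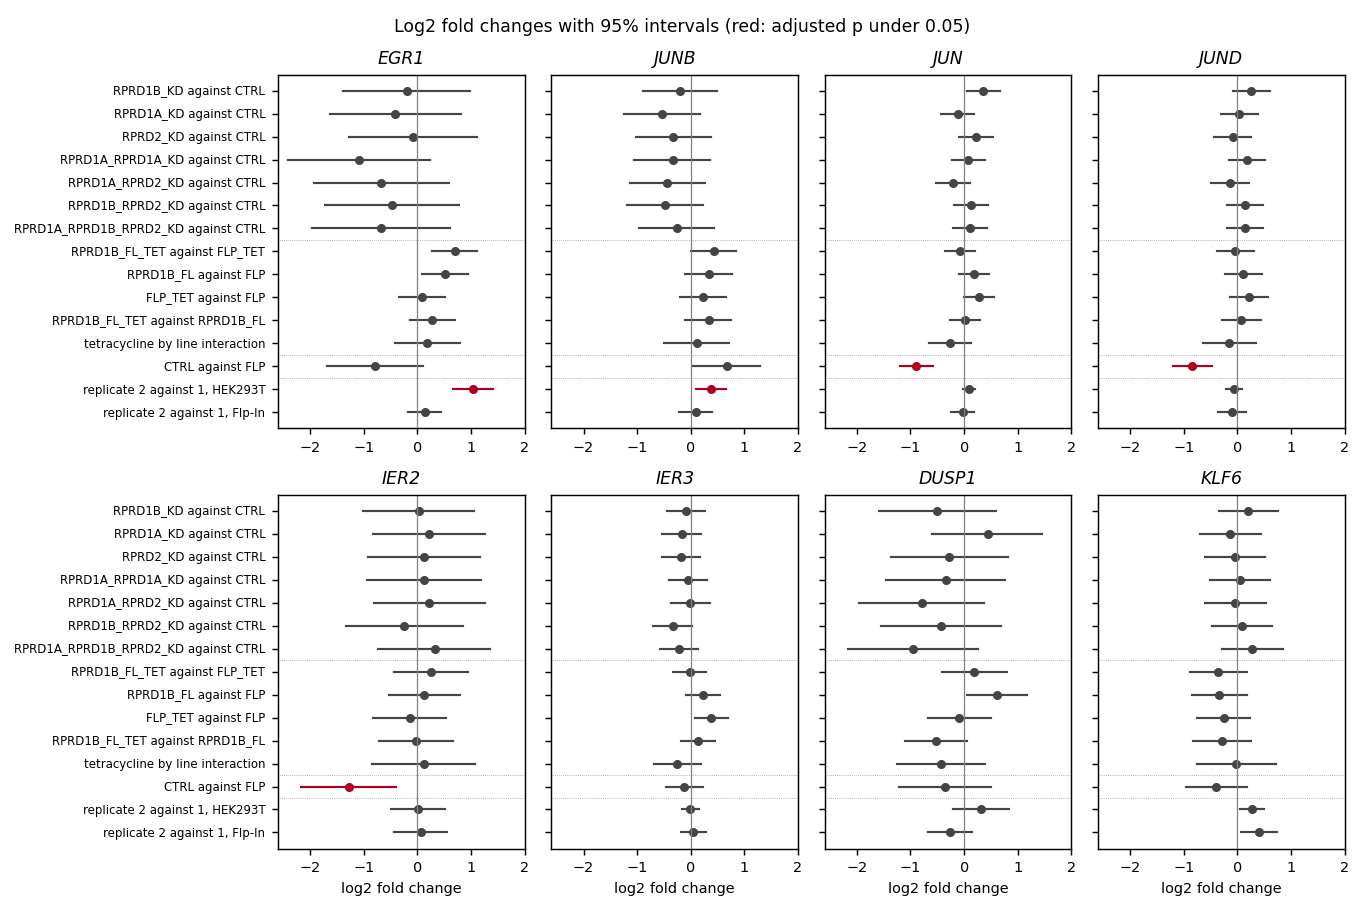
Log2 fold change with its 95% interval for each tested immediate early gene in the comparisons of the study (red, edgeR adjusted p under 0.05). The knockdown rows of EGR1 span -1.09 to -0.08 with intervals that all include 0.

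The larger difference within HEK293T followed the replicate number in the sample titles, whose meaning is not given. EGR1 ranged from 4.54 to 8.79 CPM (median 7.67) in the 8 first replicates and from 8.25 to 21.3 (median 16.3) in the 8 second ones. It was higher in replicate 2 in 8 of 8 groups, as were 6.02% of tested genes. In a fit with group and replicate number, EGR1 was 2.06-fold higher in replicate 2 (log2 1.04, SE 0.18, 95% interval 0.67 to 1.41, edgeR adjusted p = 0.000373). A fold change as large in either direction was seen in 0.642% of genes.

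JUNB was higher in replicate 2 in 6 of 8 groups, with a median of 59.8 against 45.3 CPM (log2 0.37, SE 0.13, edgeR adjusted p = 0.0481). That call was lost without either library of 6 of the 8 groups, CTRL among them (adjusted p 0.147 without its first library, 0.158 without its second). The ranges of JUNB overlapped, 30.8 to 59 CPM against 43.5 to 89.2. KLF6 was higher in 7 of 8 groups, 34.9 against 29.5 CPM at the median (log2 0.28, SE 0.11, edgeR adjusted p = 0.0773). JUN (0.09), JUND (-0.07), IER3 (-0.01) and IER2 (0.01) were not called, nor was DUSP1 at 0.32 (SE 0.25).

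So 2 of 8 tested genes were called, each higher, where 20.1% of all tested genes were called. Of 16 other immediate early regulators tested, 5 rose and 1 fell, with a median log2 change of 0.29 against 0 over all genes. ATF3, a stress-induced relative of the AP-1 factors, went from a median of 12.3 to 30.9 CPM and was higher in 8 of 8 groups (log2 1.16, SE 0.15, edgeR adjusted p = 4.91e-05). PPP1R15A, which restores translation after stress, went from 34.4 to 53.8 CPM (log2 0.58). By direction, 9.09% of all genes were called higher and 11% lower. The growth arrest genes GADD45A (0.66), GADD45B (0.32) and BTG2 (0.68) also rose, and MCL1, an anti-apoptotic gene, fell from 446 to 358 CPM in 8 of 8 groups (log2 -0.36). ATF3, PPP1R15A, GADD45A and MCL1 kept their calls under every alternative that tested them, while BTG2 lost its call in 9 of 22 and GADD45B in 5 of 23. BTG2 was lost without either library of CTRL, RPRD1A_KD, RPRD1B_RPRD2_KD or RPRD2_KD (adjusted p 0.055 to 0.0805), and GADD45B without either library of RPRD1A_KD or RPRD1B_KD (0.051 to 0.0644), and DESeq2 called neither (0.112 and 0.0775).

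Of 10 tested ERK feedback genes 0 were called in edgeR, 3 had an unadjusted p under 0.05, and the median was 0.04. Of 21 upstream genes 1 was called higher and 2 lower, and of 17 AU-rich element and deadenylation genes 1 higher and 1 lower, against the 20.1% of all genes. Among the upstream genes MAPK14, the p38α kinase, was called higher (0.24), and ELK1 (-0.32) and the p38 and ERK target kinase RPS6KA5 (-0.6) were lower. Among AU-rich element and deadenylation genes ZFP36L2, which binds AU-rich elements and promotes decay, was lower (-0.63) and the deadenylase subunit PAN3 was higher (0.5). The calls of MAPK14 and PAN3 were lost in 13 of 23 and 11 of 22 alternatives, DESeq2 (adjusted p = 0.153 and 0.0815) among them. MAPK14 was lost without the second CTRL library or either library of RPRD1A_KD, RPRD1B_KD, RPRD2_KD, RPRD1B_RPRD2_KD or the triple knockdown (0.0515 to 0.164). PAN3 was lost without either library of CTRL, RPRD1B_KD, RPRD2_KD, RPRD1A_RPRD1A_KD or the triple knockdown (0.0737 to 0.114). Reads outside any annotated gene moved with the replicate number: they were 34.3 to 36.7% of reads in the first replicates and 27.4 to 29.8% in the second. The labels do not say what the number stands for, and the part of these shares in the result was not tested.

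**Figure D4:**
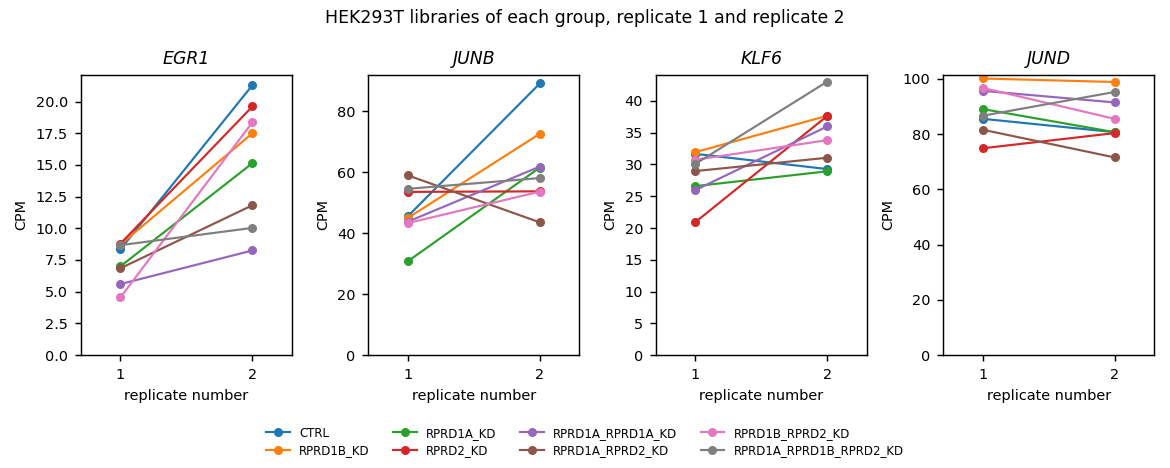
Level in CPM of EGR1, JUNB, KLF6 and JUND in replicate 1 and replicate 2 of each HEK293T group, joined by a line per group. EGR1 climbs in all 8 groups, JUNB in 6, KLF6 in 7 and JUND in 2.

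In Flp-In 0 of 11948 genes were called between replicate numbers in edgeR (0%; 427 with an unadjusted p under 0.05, and DESeq2 also called 0). EGR1 had a median of 31.9 CPM in the first and 33.8 in the second replicates (log2 0.14, SE 0.15). KLF6 was at 0.40 (SE 0.16, edgeR adjusted p = 0.999), and reads outside genes were 15.3 to 19.5% and 16.7 to 19.1%. The HEK293T difference of EGR1 exceeded that in Flp-In by 0.93 (SE 0.23, edgeR adjusted p = 0.0211) in a test added after the values were seen, which called 2.85% of 12803 genes.

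Among the 4 Flp-In groups 0 of 8 immediate early genes were called, where 5.1% of 11948 genes were, and 2 had an unadjusted p under 0.05, as did 24.1% of genes. EGR1 lay at the threshold (edgeR adjusted p = 0.0506), and JUNB had an adjusted p of 0.167 in edgeR. EGR1 was at 25.5 and 27.2 CPM in FLP, 29.3 and 27.1 in FLP_TET, 34.6 and 40.3 in RPRD1B_FL, and 41.9 and 50.3 in RPRD1B_FL_TET. The libraries of the RPRD1B_FL line did not overlap those of FLP in either condition. FLP and FLP_TET overlapped, and RPRD1B_FL_TET lay above RPRD1B_FL, a separation of 2 against 2 libraries whose share over all genes was not computed.

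With tetracycline, EGR1 was 1.62-fold higher in RPRD1B_FL_TET than in FLP_TET (log2 0.69, SE 0.20, 95% interval 0.27 to 1.11), with an edgeR adjusted p of 0.124, where 1.1% of genes were called. Without it the fold was 1.42 (log2 0.51, SE 0.21, interval 0.08 to 0.94, edgeR adjusted p = 0.282), where 1.18% were called. Averaged over both conditions, a comparison added after the values were seen, EGR1 rose by 0.60 (SE 0.14, edgeR adjusted p = 0.0185), where 4.07% of genes were called, 1.4% higher and 2.67% lower. In 4.03% of genes all 4 RPRD1B_FL libraries lay above all 4 FLP ones. The averaged call was lost in DESeq2 (adjusted p = 0.05) and without the first FLP library (0.0585), the first or second FLP_TET library (0.0855 and 0.11) or the second RPRD1B_FL library (0.0831).

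JUNB was at 44.7 and 55.8 CPM in FLP_TET and at 80.4 and 56.1 in RPRD1B_FL_TET (log2 0.43, SE 0.20, edgeR adjusted p = 0.463). DUSP1 was at 11.4 and 10.9 CPM in FLP and at 19.7 and 14.5 in RPRD1B_FL (log2 0.62, SE 0.27, edgeR adjusted p = 0.317). Neither was called. The lone high library of JUNB was the first of RPRD1B_FL_TET, the one with the GC correlation of 0.6. The difference was 0.48 with GC correction (edgeR adjusted p = 0.147) and 0.16 without that library (0.8). Averaged over both conditions JUNB differed by 0.38 (SE 0.15, edgeR adjusted p = 0.161), and by 0.49 without the second RPRD1B_FL_TET library, where it was called (0.0265). Of 17 other immediate early regulators, GADD45B was called higher in RPRD1B_FL than in FLP, as were 0.226% of genes (log2 0.76, SE 0.18, edgeR adjusted p = 0.0297). That call was lost without the first FLP library (adjusted p = 0.386), either FLP_TET library (0.0919 and 0.0941) or either RPRD1B_FL library (0.132 and 0.17).

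In the averaged line difference 3 of these 17 were called, GADD45B (log2 0.63, edgeR adjusted p = 0.00378) and PPP1R15A (0.48, edgeR adjusted p = 0.0446) higher and BTG1, an antiproliferative gene, lower (-0.42, edgeR adjusted p = 0.0275). Over the 4 Flp-In groups 2 of the 17 were called, GADD45A and GADD45B (edgeR adjusted p = 0.0199 and 0.0208). The averaged call of GADD45B held in 16 of 16 alternatives (0.51 to 0.73). PPP1R15A lost its call in 12 of 16, without either library of FLP, FLP_TET or RPRD1B_FL or the first of RPRD1B_FL_TET among them (0.0664 to 0.207). BTG1 lost it in 4 of 16, without the second FLP or RPRD1B_FL library or either FLP_TET library (0.0664 to 0.216). Of the 7 tested markers of 293 cells 2 were lower in the RPRD1B_FL line, NEFL (-0.73, edgeR adjusted p = 0.000231), which kept its call in 16 of 16 alternatives, and LHX1 (-0.89, edgeR adjusted p = 0.0282), which lost it in 8 of 15. LHX1 was lost in DESeq2 (0.178) and without either library of FLP, FLP_TET or RPRD1B_FL or the second of RPRD1B_FL_TET (0.0513 to 0.127). The part of these markers in the EGR1 difference was not tested.

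Tetracycline called 0 of the 8 genes in the FLP line, where 1.02% of genes were called. IER3 went from 125 and 134 CPM in FLP to 159 and 180 in FLP_TET (log2 0.38, SE 0.15, edgeR adjusted p = 0.142). With GC correction the difference was 0.16 (edgeR adjusted p = 0.519), in the groups that the GC correlation separated. In the RPRD1B_FL line 0 genes of 11948 were called in edgeR (0%; 730 with an unadjusted p under 0.05, 0 in DESeq2), and EGR1 differed by 0.27 (interval -0.14 to 0.69). RPRD1B itself averaged 45.1 CPM in RPRD1B_FL and 78.2 in RPRD1B_FL_TET (log2 0.77, SE 0.18, edgeR adjusted p = 0.404). Thus 0 calls do not exclude a change. Against FLP_TET, RPRD1B was called higher in RPRD1B_FL_TET (log2 1.34, edgeR adjusted p = 0.000324) and RPRD1A lower (-1.11, edgeR adjusted p = 0.00462). The tetracycline effect did not differ between the lines for any gene called (0 of 11948, 0%; 477 unadjusted, 0 in DESeq2), and for EGR1 the difference was 0.18 (interval -0.42 to 0.79).

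Between the lines, 4 of 8 tested genes had HEK293T and Flp-In libraries that did not overlap: JUN, JUND, EGR1 and IER2, each lower in HEK293T. This held for 20.5% of 12803 genes in either direction. Line, siRNA transfection and library preparation cannot be told apart here. In CTRL against FLP, 3 of 8 were called, all lower, where 33.4% of genes were called and 17.4% called lower. JUN was at 417 and 440 CPM in CTRL and at 760 and 826 in FLP (log2 -0.89, SE 0.15, edgeR adjusted p = 5.21e-05). JUND was at 85.6 and 80.7 against 140 and 159 CPM (-0.85, SE 0.18, edgeR adjusted p = 0.000635). IER2 was at 5 and 4 against 10.3 and 11.5 CPM (-1.28, SE 0.43, edgeR adjusted p = 0.0231).

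The IER2 call, on 9 counts in each CTRL library, was lost without the first CTRL library (adjusted p = 0.0544), the second CTRL library (0.15) or the second FLP library (0.104), and in DESeq2 (0.0566). EGR1 differed by -0.79 (SE 0.43, edgeR adjusted p = 0.165), with the CTRL libraries at 8.3 and 21.3 CPM. Without the second CTRL library EGR1 (-1.68, edgeR adjusted p = 0.043) and DUSP1 (-2.01, edgeR adjusted p = 0.0134) were called lower, and with any other CTRL or FLP library left out neither was. JUNB pointed the other way, at 0.67 (SE 0.30, edgeR adjusted p = 0.09). Its difference was 1.03 without the first CTRL library (adjusted p = 0.0197) and as low as 0.06 with 1 library left out.

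The ERK feedback list holds genes transcribed on ERK activity, some of which then restrain it. Of 13 tested, 8 were called lower in CTRL and 3 higher, where 16.1% of all genes were called higher. The median was -2.41 against 0.02 over all genes, and also -2.41 with groups under 3 counts set to 3. In fits of 1 line, 10 of these genes passed the low-count filter in HEK293T and 12 in Flp-In. Some thus entered only through the line where they were high, and the counts and median rest partly on them. The other immediate early regulators below (16 and 17 tested by line) carry the same limit. DUSP6, an ERK phosphatase, was at 2.22 ± 0.0035 CPM in CTRL and 42.9 ± 12 in FLP (SD, n = 2), on 9 and 255 counts over the 2 libraries. With so few counts the CTRL SD understates the counting error. The log2 fold change of DUSP6 was -4.23 (SE 0.44, edgeR adjusted p = 3.93e-08). DUSP4, DUSP5, SPRY2, PHLDA1 and SPRED2 were lower by -3.1 to -1.83. ETV4 and ETV5, ETS factors induced by ERK, had 1 count each over the CTRL libraries and 66 and 309 over the FLP libraries. DUSP2 had 32 counts in CTRL and 0 in FLP, and NAB2 (1.46), a corepressor of EGR1, and SPRY1 (0.84) were higher. SPRY1 lost its call without either library of CTRL or FLP (adjusted p 0.0954 to 0.172), and SPRED2 without the second library of CTRL (0.142) or of FLP (0.053). Of 19 other immediate early regulators, BTG1, BTG2, FOSL2, GADD45A, IER5 and TRIB1 were lower and CTGF and IER5L higher, though IER5L lost its call in 23 of 32 alternatives, without either CTRL or FLP library among them (adjusted p 0.0991 to 0.215), and IER5 without the second CTRL library (adjusted p = 0.0741). Reads outside genes (27.4 to 36.7% in HEK293T, 15.3 to 19.5% in Flp-In) and the 293 marker levels given above differed between the lines too, and their part was not tested.

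Genes most like the mean pattern of these members were ARF1 (Pearson r = 0.9), DAD1 (0.89), C1orf43 (0.88), METTL5 (0.88) and MYDGF (0.87) over the 16 HEK293T libraries. That pattern was taken over the 6 members at 10 CPM or more, and EGR1 itself had r = 0.88 with it, while IER3 had 0 and JUND 0.01. Over the 8 Flp-In libraries they were IDH3B, CCDC117, WWP2 and AP5Z1 (each 0.98) and MRPL55 (0.97), with 8 members in the pattern and KLF6 at -0.49. The libraries differ in replicate number, depth and GC correlation, so these values only describe them.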

How the data were processed

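RNA from HEK293T and Flp-In T-REx 293 cells, 24 libraries in all, was sequenced from transcript 3′ ends (TRIzol, QuantSeq 3′ mRNA-Seq REV, per the labels' protocols). The values deposited by the authors are raw counts per gene name, 1 table per sample. The submitters' processing notes name FastQC, STAR, HTSeq, DESeq2 and GRCh38; versions, annotation and strand setting are not given in the sources used here. The 5 closing rows of each table (reads outside genes, ambiguous or not uniquely placed; 30.4 to 48.5% of reads) were left out of library sizes and tests.

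Groups and replicate numbers came from the sample titles and characteristics. In R 4.3.3, edgeR 4.0.16 (filterByExpr with minimum count 10 and minimum total 15, TMM, glmQLFit, glmQLFTest) was fitted to all samples of a line, or to all 24 for CTRL against FLP and the difference between replicate effects. P-values were adjusted by Benjamini-Hochberg over all genes tested, and a gene was called under 0.05. SEs were taken from each log2 fold change divided by the root of its F value. SDs of log2 CPM used a prior count of 0.5. The genes named are the 10 members in all groups and the listed genes called in a comparison described. A member's own fold change is printed where its unadjusted p was under 0.05, and other fold changes mostly by range. The values within a replicate number and the markers in the averaged difference were added after the values were seen. Those printed beyond that (EGR1, JUNB, KLF6, DUSP1 and others in the replicate, tetracycline and line comparisons) were chosen after their values were seen. The 5 most similar genes in each line were ranked by Pearson's r of log2(CPM + 1) at 10 CPM or more.

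The members and lists were chosen with earlier results of these data known. Alternatives were DESeq2 1.42.0, RLE factors, total count alone, no low-count filter, a mean count of 50 or more, only the compared groups, a GC correction, a replicate block and leaving out each library. The scripts were tested on simulated counts. No pair of replicates agreed within sampling noise (chi-square per degree of freedom 2.11 to 11.8). With no spike-in, a change of all RNA together is removed by the scaling. Sequences are RefSeq's (GRCh38.p14), and gene positions and GC content are from GENCODE 29. One marker gene is not reported here.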

Additional observations from a re-analysis of the deposited data

Results flagged for a closer look

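The replicate effect of EGR1 differed between the lines: replicate 2 minus replicate 1 was larger in HEK293T than in Flp-In by 0.93 on the log2 scale (SE 0.23, edgeR adjusted p = 0.0211, a test in a fit of all 24 libraries chosen after seeing the data). EGR1 was higher in replicate 2 in 8 of 8 HEK293T groups and in 3 of 4 Flp-In groups. The same test called 2.85% of 12803 genes, among them ATF3 (1.1), PPP1R15A (0.66) and MCL1 (-0.45), each from the list of other immediate early regulators. The replicate numbers of the 2 lines are not said to mark the same thing.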

How the results depend on the processing

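Of 222 recomputed counts of called members, 193 stayed within 1.5 times the main count, and no direction reversed among the members with an unadjusted p under 0.05 in a comparison (371 of 410 values kept their side of the threshold). Members in knockdown comparisons were not among them, other than JUN in RPRD1B_KD, and the directions of JUNB, DUSP1 and EGR1 there turned without the second CTRL library. Of 1091 such values of the listed genes, 981 kept it, and none reversed. Counts of 0 members in the HEK293T groups, the 7 knockdown comparisons, the tetracycline comparisons and the interaction stayed 0 under every alternative run. Among the 4 Flp-In groups 1 member, EGR1, was called with GC correction (adjusted p = 0.0499), GC correction with replicate block (0.0414), no low-count filter (0.0304) and RLE factors (0.0467), and leaving out 1 library gave 0 to 1: EGR1 without the first RPRD1B_FL or RPRD1B_FL_TET library, JUNB without the second RPRD1B_FL_TET library. For the HEK293T replicate number, 1 member was called with DESeq2, GC correction or total count alone (EGR1), in the difference between lines (EGR1) and at a mean count of 50 or more (JUNB, since EGR1 falls under that filter). Leaving out 1 library gave 1 to 3, the third being KLF6 without either RPRD1A_RPRD2_KD library (adjusted p 0.0222 and 0.0242). EGR1 kept its call in all 22 alternatives that tested it (0.9 to 1.15), and JUNB lost it in 15 of 23. Leaving out 1 library of a group removes that group from this effect. In CTRL against FLP, 5 members (EGR1 and JUNB added) were called with no filter, with only the compared groups and with the replicate block, and 2 to 4 with 1 library left out (EGR1 and DUSP1 added without the second CTRL library); JUN and JUND were called in 33 of 33 alternatives. The averaged difference of the RPRD1B_FL line called 1 member, EGR1, where each condition apart called 0. The cause of these moves was not tested, beyond the filter for EGR1.

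Replicate numbers need not pair the samples. In HEK293T same-numbered deviations correlated at a mean of 0.336 over 28 pairs of groups, from -0.0115 to 0.527, with 26 over 0.1 (0.29 or more in the 21 pairs without RPRD1A_RPRD2_KD), and in Flp-In at a mean of -0.0175 over 6 pairs. With the number as a block, the count of called members moved from 3 to 5 in CTRL against FLP and in no other comparison without GC correction.

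Counts of all called genes moved more. Over the 8 HEK293T groups they went from 3 to 12 (DESeq2), 29 (replicate block), 39 (GC correction with replicate block), 124 (no filter) and 203 (without the first RPRD1A_RPRD2_KD library), and over the 7 knockdown comparisons from 10 to between 6 and 582. Over the 4 Flp-In groups 609 became 159 to 2285 with 1 library left out and 267 to 1401 otherwise. For FLP_TET against FLP 122 became 1 with the replicate block and 0 to 1308 in all, for RPRD1B_FL against FLP 141 became 40 to 486, and for RPRD1B_FL_TET against FLP_TET 132 became 28 to 486. For RPRD1B_FL_TET against RPRD1B_FL 0 became up to 75, for the interaction up to 5 and for the Flp-In replicate number up to 59. For the HEK293T replicate number 2382 became 1468 with DESeq2, and for CTRL against FLP 4279 became 2581 at a mean count of 50 or more. Depth limits FOS, FOSL1, IER2 and DUSP1 most.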
